A study of Mus musculus with 12 samples.

Results

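IL-4 and IL-13 alone were compared with control in cultures of 3T3-L1, a mouse embryonic fibroblast line that can also be driven to become adipocytes. The comparison took the 3 libraries labelled IL-4/13 and the 3 labelled control, 6 of the 12 libraries of the series, and was described over all genes that passed a filter on low counts, grouped by function. The cells were wild type and, per the study's methods, cultured for 24 h; IL-4/13 cultures received IL-4 and IL-13 at 50 ng/mL each, and control cultures, headed untreated in the count table, received vehicle per the labels. The other libraries, used here for the estimate of spread and for 1 comparison of responses, came from cells given Inf with or without IL-4/13, where Inf is a cocktail of IL-1β at 0.5 ng/mL, TNF-α at 20 ng/mL, and IL-17A at 50 ng/mL. The line is clonal and was grown without other skin cells, and the labels do not say whether the 3 replicates were separate cultures, so p-values measure the spread between these libraries, which may be technical.

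IL-4 and IL-13 are the cytokines of type 2 inflammation, made by T helper 2 cells, innate lymphoid cells, mast cells, and basophils. Both act through IL-4Rα, which pairs with the common γ chain (Il2rg) in hematopoietic cells, where it binds IL-4, or with IL-13Rα1 in structural cells such as fibroblasts, where it binds either cytokine. The bound receptor activates JAK kinases, which phosphorylate STAT6, and IRS adaptors carry a further signal toward PI3K. IL-13Rα2 binds IL-13 tightly and is regarded largely as a decoy, and SOCS proteins and CIS shut the pathway down.

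The 6 libraries held 13446005 to 18522188 assigned reads, and the label for batch was the same in all 12. A principal component analysis of the 6 placed the groups apart on the first component, which held 35.3% of the variance. Fibroblast markers were abundant in all 6 libraries, with 12 of 13 markers tested and a summed level, in read counts scaled to a common library total (CPM, the usual depth-normalized count), of 15800 to 17700 CPM in control and 13700 to 14400 CPM in IL-4/13; 5 of the 12 were lower with IL-4/13 and are given with the matrix and receptor genes. Macrophage markers summed to 20.7 to 23.9 CPM in control and 24.2 to 26.8 CPM in IL-4/13, with C1qa, C1qb, Tyrobp, and Adgre1 at 0 counts in all 6. T cell, mast cell, and endothelial marker lists each summed to at most 2.86 CPM in any library. Epithelial markers summed to 10.1 to 11 CPM in control and 12 to 15.5 CPM in IL-4/13, with Krt5, Krt1, and Epcam at 0.

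Of 14810 genes tested, 792 (5.35%) differed between IL-4/13 and control at an adjusted p below 0.05 (edgeR's quasi-likelihood test with Benjamini-Hochberg adjustment) and a log2 fold change beyond 0.25. IL-4/13 upregulated 412 genes (2.78% of those tested) and downregulated 380 (2.57%). The counts for each function list below are to be read against these shares. The rises were steeper than the falls, as 87 of the upregulated genes changed at least 2-fold against 21 of the downregulated genes, and 264 of the 380 falls were smaller than 0.5 on the log2 scale. Among the upregulated genes, 40 had a control mean under 1 CPM, and among the downregulated genes 11 had an IL-4/13 mean under 1 CPM. The part of these low genes in the difference was not tested. The log2 fold changes of all tested genes had a median of -0.001 with a middle range of -0.12 to 0.103. The 3 IL-4/13 libraries lay wholly outside the range of the control libraries for 776 of the 792 genes; over all tested genes they lay wholly above in 13.4% and wholly below in 13.1%. In bulk RNA, a change in a gene cannot be told apart from a change in the share of cells that express it.

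**Figure D1:**
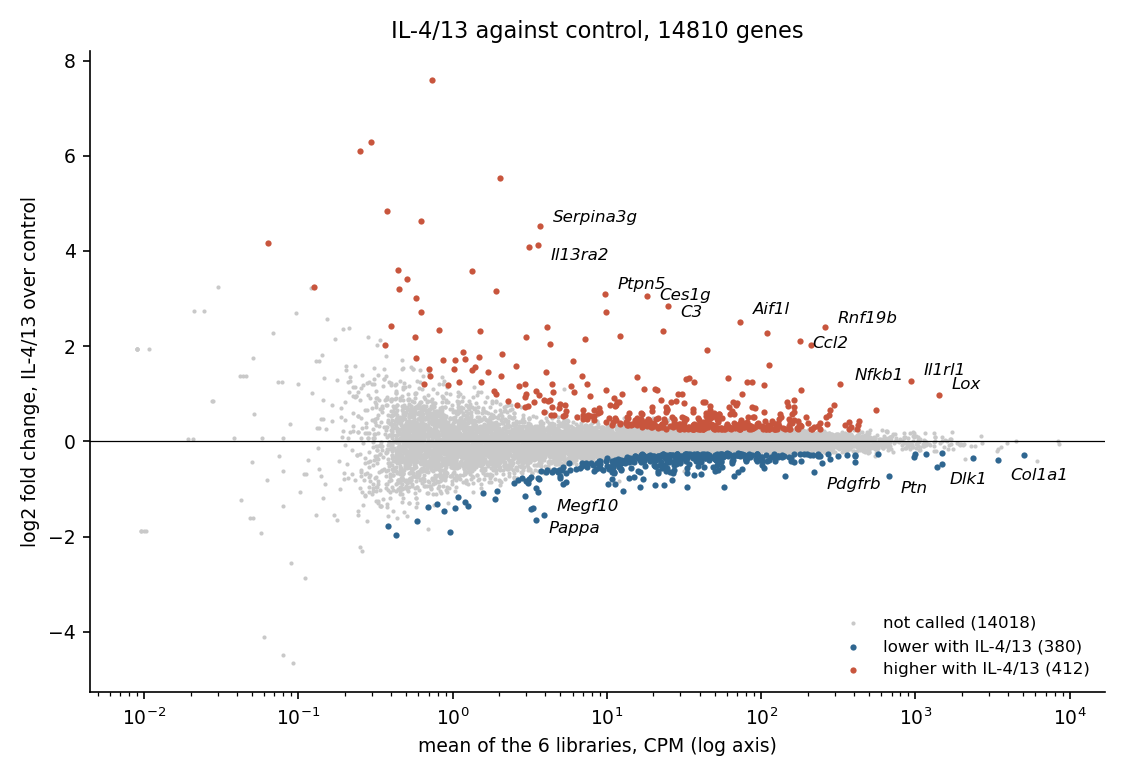
Mean level of the 6 libraries in CPM (log axis) against the log2 fold change of IL-4/13 over control for the 14810 tested genes, with 412 genes called higher in red, 380 called lower in blue, and the rest in gray. Red points reach much farther from 0 than blue points, with 87 rises but 21 falls of at least 2-fold.

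The receptor and signal genes of the pathway were expressed before treatment and most kept their level. Il4ra measured 53.8, 54.1, and 49.3 CPM in the control libraries and 53.6, 55.0, and 57.8 CPM with IL-4/13, so that IL-4/13 and control differed by 0.08 on the log2 scale (SE 0.0595, adjusted p = 0.498). Il13ra1 measured 58.3 ± 1.34 CPM in control and 60.3 ± 2.89 CPM with IL-4/13 (SD, n = 3), and the groups overlapped for both subunits. Per kilobase of their longest annotated transcript, control cells held 15.7 CPM of Il13ra1, 9.97 CPM of Il4ra, and 0.491 CPM of Il2rg, so that the type II receptor pair far exceeded the common γ chain; 42.0% of the 50-base stretches of Il2rg are shared with an overlapping gene model, so its level is uncertain. Stat6 measured 90.7 ± 1.30 CPM in control and 92.5 ± 4.14 CPM with IL-4/13, and Jak1, Jak2, and Tyk2 had log2 fold changes of -0.04, -0.02, and -0.08. Stat3 measured 190.0 ± 9.95 CPM in control and 186 ± 5.45 CPM with IL-4/13 and was not called. Among the 16 tested genes of this list, 2 rose. Il13ra2, the decoy receptor, was near the floor in control at 0.343, 0.496, and 0.300 CPM and measured 5.89, 6.80, and 7.64 CPM with IL-4/13, with no overlap and a 17.4-fold rise (log2 fold change 4.12, SE 0.217, adjusted p = 4.85e-15). The adaptor Irs1 rose from 37.4 ± 1.44 to 55.2 ± 2.30 CPM (adjusted p = 1.19e-06), whereas Irs2 measured 58.6 ± 7.96 CPM in control and 58.0 ± 2.59 CPM with IL-4/13.

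Among the 17 tested inhibitors of JAK-STAT signaling, 2 rose and 1 fell. Cish, which encodes CIS and is a familiar STAT target, measured 2.34, 1.80, and 3.78 CPM in control and 9.97, 12.8, and 12.9 CPM with IL-4/13, a 4.45-fold rise (adjusted p = 4.76e-10). Socs1, an inhibitor of JAK kinase activity, measured 11.8, 14.1, and 14.7 CPM in control and 27.2, 28.3, and 30.7 CPM with IL-4/13, a 2.12-fold rise (adjusted p = 1.47e-10). Every treated library lay above every control library for both genes. Socs2, which restrains growth hormone signaling, fell from 9.95 ± 0.710 to 6.47 ± 0.326 CPM (adjusted p = 0.00271). Socs3 measured 44.7 ± 3.27 CPM in control and 53.2 ± 3.35 CPM with IL-4/13, with an adjusted p of 0.0105 but a fold change just under the threshold. The phosphatases Ptpn1 and Ptpn2 and the adaptor Sh2b3 had log2 fold changes of -0.05, 0.02, and -0.02 and were not called.

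The start-site sequences of upregulated genes were examined because STAT dimers bind palindromes of TTC and GAA, with STAT6 preferring a spacing of 4 bases and other STATs a spacing of 3. The letters TTCNNNNGAA and TTCNNNGAA, each of which reads the same on both strands, were sought in the window from 250 bases before to 50 bases after each annotated start (RefSeq, GRCm38.p6); a window could hold both motifs. A window was found for 9932 of the tested genes. The 4-base spacing occurred in 39 of 299 upregulated genes (13.0%), 19 of 270 downregulated genes (7.04%), and 665 of the 9932 tested genes (6.70%). The 3-base spacing occurred in 43 upregulated genes (14.4%), 22 downregulated genes (8.15%), and 814 tested genes (8.20%). The difference between these shares was not tested, and a match is a description of letters and not a bound site. Of the 39 upregulated genes, 32 had no overlap between groups and a mean of at least 5 CPM in either group; shown are the windows of the 3 with the largest rise among these, together with that of Cish, which holds the 3-base spacing at 2 places; capitals mark the motif.
Edn1, chr13:42301226-42301525, plus strand: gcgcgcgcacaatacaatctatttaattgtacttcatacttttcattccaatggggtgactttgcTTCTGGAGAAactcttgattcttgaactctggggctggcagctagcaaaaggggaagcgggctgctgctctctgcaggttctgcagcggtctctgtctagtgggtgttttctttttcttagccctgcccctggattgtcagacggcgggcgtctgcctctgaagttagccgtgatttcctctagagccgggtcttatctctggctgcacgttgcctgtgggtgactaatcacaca
Cd53, chr3:106790100-106790399, minus strand: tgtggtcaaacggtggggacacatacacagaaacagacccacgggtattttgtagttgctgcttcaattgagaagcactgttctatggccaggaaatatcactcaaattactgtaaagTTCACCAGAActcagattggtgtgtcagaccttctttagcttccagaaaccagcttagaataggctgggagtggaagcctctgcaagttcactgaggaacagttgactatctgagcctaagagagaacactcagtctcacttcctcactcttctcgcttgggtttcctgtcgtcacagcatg
Mapkapk3, chr9:107289347-107289646, minus strand: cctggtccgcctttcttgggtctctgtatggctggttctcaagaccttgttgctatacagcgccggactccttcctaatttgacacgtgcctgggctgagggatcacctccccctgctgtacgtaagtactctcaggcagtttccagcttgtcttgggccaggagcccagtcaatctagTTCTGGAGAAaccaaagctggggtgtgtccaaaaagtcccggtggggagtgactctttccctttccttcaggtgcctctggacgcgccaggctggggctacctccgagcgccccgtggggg
Cish, chr9:107296409-107296708, plus strand: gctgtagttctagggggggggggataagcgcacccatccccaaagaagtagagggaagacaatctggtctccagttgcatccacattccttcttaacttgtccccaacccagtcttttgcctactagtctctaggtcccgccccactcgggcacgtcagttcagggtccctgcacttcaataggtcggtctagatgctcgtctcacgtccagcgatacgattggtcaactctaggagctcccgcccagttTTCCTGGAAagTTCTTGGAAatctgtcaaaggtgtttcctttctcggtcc
The motif of Edn1 started at position -185 from the start site, that of Cd53 at -132, and that of Mapkapk3 at -71, and the pair in Cish started at positions 1 and 12. Edn1, the gene of the vasoconstrictor endothelin 1, measured 8.40, 6.02, and 8.58 CPM in control and 37.0, 38.9, and 39.5 CPM with IL-4/13, a 5-fold rise. Mapkapk3, a kinase downstream of p38, rose 2.15-fold from 11 ± 0.734 to 23.8 ± 3.21 CPM (adjusted p = 4.84e-09); its start site lies 7263 bases from that of Cish on the opposite strand, so the 2 upregulated genes point away from each other. Cd53, a tetraspanin of leukocytes, measured 2.29, 1.18, and 1.5 CPM in control and 7.18, 6.80, and 6.76 CPM with IL-4/13 (adjusted p = 2.08e-06). The summed macrophage markers given above were also higher with IL-4/13 without overlap. Most of this sum was Cd14, at 14.9 ± 1.49 CPM in control and 18.7 ± 0.981 CPM with IL-4/13. The other tested markers did not move together: Lyz2 measured 2.89 CPM in control and 1.72 CPM with IL-4/13, and Csf1r 3.54 and 2.98 CPM. Cd68 measured 1.01 and 1.27 CPM and Mrc1 0.181 and 0.477 CPM, and no macrophage marker was called. The part of these markers in the rise of Cd53 was not tested. Cd53 and Mapkapk3 were named after their values were seen.

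**Figure D2:**
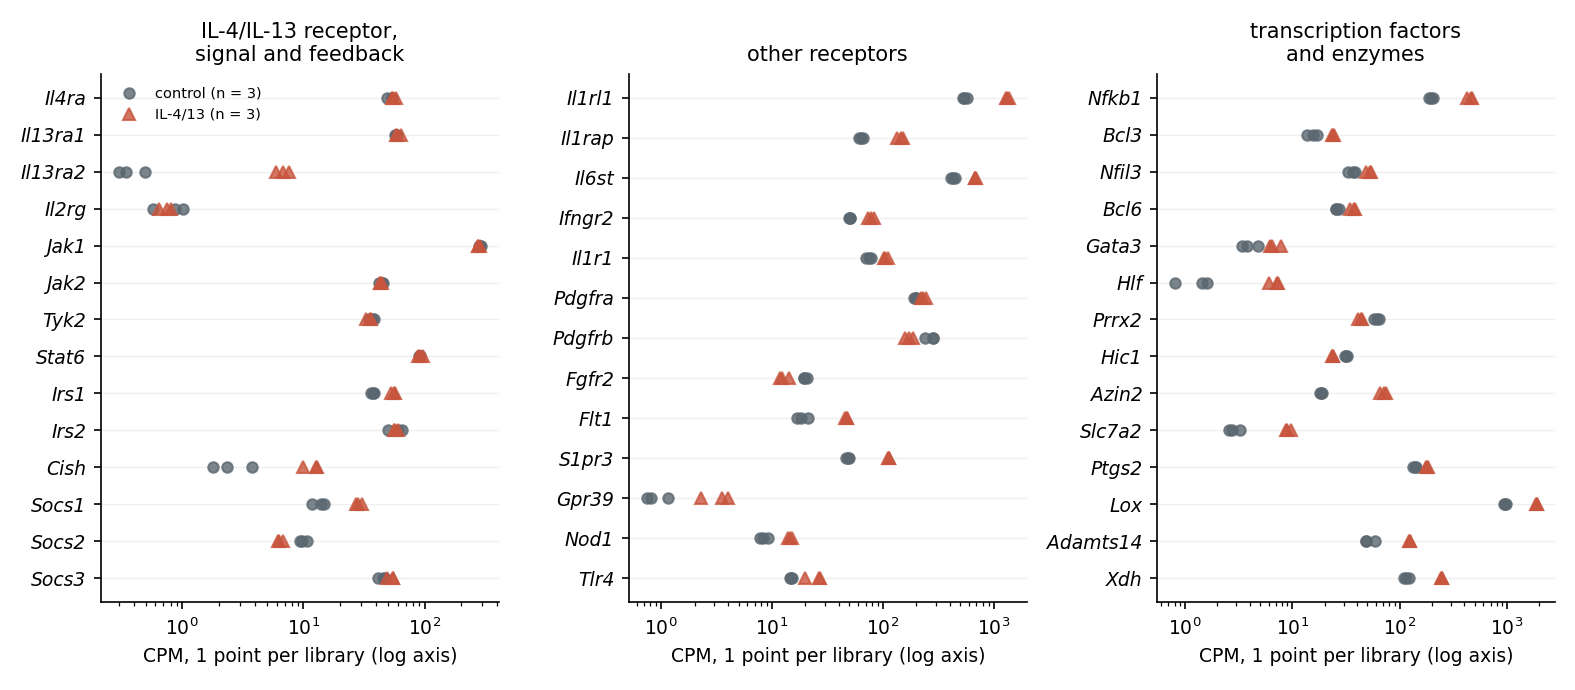
CPM in each of the 3 control (gray circles) and 3 IL-4/13 libraries (red triangles), on log axes, for genes of the IL-4/IL-13 pathway, other receptors, and transcription factors and enzymes. The receptor subunits Il4ra and Il13ra1 and the kinases overlap between groups, while Il13ra2, Cish, Socs1, Il1rl1, and Nfkb1 separate fully.

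The 15 largest rises among genes that reached 5 CPM in 1 group covered unrelated functions. Besides Il13ra2, Cish, and Edn1, they held the protease inhibitor Serpina3g (23.1-fold), the retinoid flippase Abca4 (17.1-fold), the tyrosine phosphatase Ptpn5 (8.60-fold), the carboxylesterase Ces1g (8.30-fold), complement C3 (7.16-fold), the prolactin family member Prl2c3 (6.61-fold), the actin-binding protein Aif1l (5.66-fold), the ubiquitin ligase Rnf19b (5.31-fold), the circadian-type bZIP factor Hlf (5.29-fold), the chemokines Ccl7 (4.84-fold) and Ccl2 (4.29-fold), and the BMP antagonist Chrdl1 (4.67-fold). The most abundant of them was Rnf19b, which measured 80.8, 79.5, and 85.9 CPM in control and 406, 460, and 442 CPM with IL-4/13 (log2 fold change 2.41, SE 0.0497, adjusted p = 3.05e-25). Aif1l measured 22.6, 20.3, and 23.1 CPM in control and 116, 134, and 124 CPM with IL-4/13. For both genes every IL-4/13 library lay far above the highest control library. Ptpn5 measured 2.00, 2.29, and 1.80 CPM in control and 16.2, 18.8, and 17.6 CPM with IL-4/13, and Ces1g measured 4.51, 3.47, and 3.72 CPM in control and 31.7, 31.8, and 34.2 CPM with IL-4/13. Abca4 was at 0.0571, 0.496, and 0.480 CPM in control, so its fold rests on few control reads, and at 4.98, 6.61, and 6.17 CPM with IL-4/13. The proliferin gene Prl2c2, named after its values were seen, rose 4.05-fold from 83.2 ± 6.35 to 337 ± 12.3 CPM; 89.5% of its 50-base stretches and 78.6% of those of Prl2c3 are shared with other genes of the family, so reads cannot be assigned to either with certainty.

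**Figure D3:**
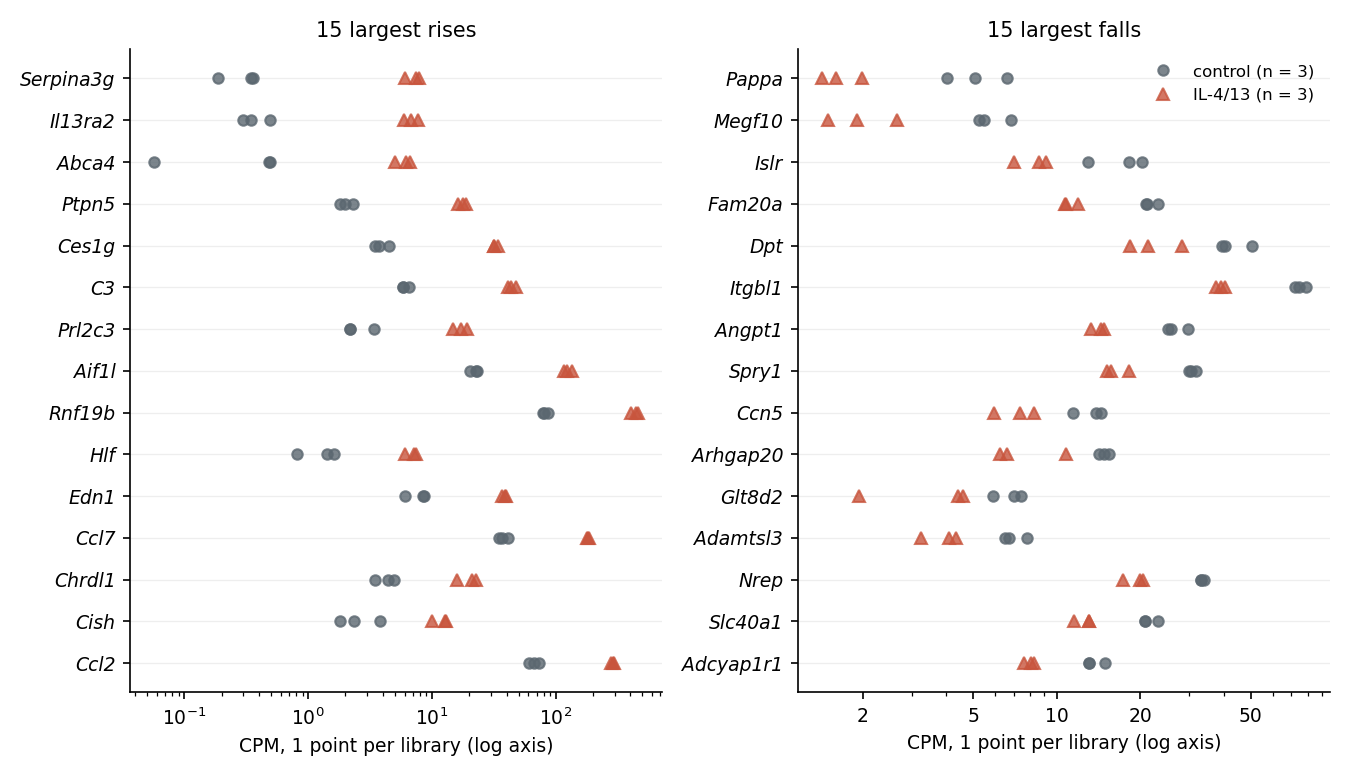
CPM in each control (gray circles) and IL-4/13 library (red triangles) on log axes for the 15 genes that rose most and the 15 that fell most, among called genes whose groups did not overlap and reached 5 CPM. Rises run from 4.29-fold to 23.1-fold, while the largest fall, Pappa, is to 0.318 of control.

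Among protease inhibitors, 11 of 33 tested members were upregulated and 3 downregulated, with a median log2 fold change of 0.183; over all tested genes the shares were 2.78% and 2.57%. Of the 11, 6 belong to the Serpina3 cluster of serpins, some of which are acute phase proteins in mice. These 6 had control means of at most 0.296 CPM and passed the filter on low counts through other groups. They could thus hardly be called lower, and 47 further members of the list were not tested, which limits the comparison with the shares over all tested genes. Serpina3g measured 0.343, 0.186, and 0.360 CPM in control and 6, 7.91, and 7.42 CPM with IL-4/13 (adjusted p = 1.82e-14). Serpina3i had 0 counts in all control libraries and 14, 25, and 28 counts with IL-4/13, at least 23.5-fold higher against a floor of 3 counts over the control group. Serpina3h had 4 control and 192 treated counts over 3 libraries each (ratio 50.6, exact 95% interval 19.4 to 188.0), and Serpina3n had 2 and 55 (ratio 29.0, interval 7.65 to 245.0); these intervals cover counting error only. Between 6.90% and 16% of the 50-base stretches of Serpina3f, Serpina3g, Serpina3i, and Serpina3n are shared with other genes of the cluster, so the division of reads among them is uncertain. The sharing of Serpina3h was not assessed. Outside the cluster, Serpinb2, an inhibitor of urokinase, rose 3.41-fold, from a control mean of 0.675 ± 0.171 CPM.

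Receptors for other cytokines shifted, with 9 of 37 tested genes upregulated and 4 downregulated and a median log2 fold change of 0.081. Il1rl1, which encodes ST2, the receptor for IL-33, was already high and measured 537, 578, and 533 CPM in control and 1314, 1366, and 1288 CPM with IL-4/13, a 2.41-fold rise (log2 fold change 1.27, SE 0.0418, adjusted p = 4.8e-20). Its coreceptor Il1rap measured 64.2, 61.5, and 65.7 CPM in control and 152, 147, and 134 CPM with IL-4/13, a 2.27-fold rise (adjusted p = 9.87e-17). Total transcripts of both genes thus moved in the same direction by a similar factor, with no overlap for either. Counts per gene do not separate the transcript forms of a gene, and receptor protein was not measured. Il1r1, the receptor for IL-1, rose from 74.4 ± 3.32 to 106 ± 4.54 CPM. Il6st, the gp130 chain shared by IL-6 family receptors, rose from 431 ± 16.2 to 685 ± 11.6 CPM (adjusted p = 1.5e-11). Ifngr2, a chain of the interferon-γ receptor, rose from 50.3 ± 0.778 to 78.8 ± 4.75 CPM. The count of 4 lower receptors fell to 2 without IL-4/13 replicate 2 and to 1 without control replicate 3.

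Growth factor receptors leaned the other way, with 3 of 40 upregulated and 9 downregulated and a median of -0.137. Pdgfrb, the receptor for PDGF-B and a fibroblast marker, measured 282, 243, and 282 CPM in control and 171, 159, and 185 CPM with IL-4/13 and fell to 0.638 of control (adjusted p = 0.000497). Pdgfra measured 196 ± 3.02 CPM in control and 233 ± 13.0 CPM with IL-4/13, a log2 fold change of 0.25 that stayed under the threshold (adjusted p = 0.0298). Fgfr2 fell from 19.9 ± 0.682 to 12.7 ± 1.35 CPM, and the ephrin receptor Ephb6 fell from 2.62 ± 0.419 to 1.13 ± 0.0813 CPM. Flt1, the VEGF receptor 1, rose from 18.8 ± 2.31 to 46.8 ± 0.750 CPM (adjusted p = 1.35e-10). G protein-coupled receptors had 7 of 34 upregulated, or 4 upregulated without control replicate 3, and 2 downregulated. S1pr3, a receptor for sphingosine 1-phosphate, measured 46.5, 48.2, and 49.6 CPM in control and 111, 115, and 115 CPM with IL-4/13 (adjusted p = 1.16e-17). Gpr39, a zinc-sensing receptor, rose from 0.896 ± 0.213 to 3.28 ± 0.889 CPM, and Htr2a, a serotonin receptor, rose from 0.398 ± 0.0371 to 1.34 ± 0.236 CPM. Of 27 innate sensors and adaptors, 2 rose, or 7.41% called against 5.35% of all tested genes. Nod1 rose from 8.46 ± 0.681 to 14.4 ± 0.534 CPM and Tlr4, the receptor for lipopolysaccharide, from 14.9 ± 0.224 to 24.5 ± 4.05 CPM. The summed macrophage markers, mostly Cd14, were higher by a few CPM in the same libraries, and their part in the innate receptor values was not tested.

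Transcription factors of the early response and NF-κB families had 12 of 53 members upregulated and 4 downregulated, or 2 downregulated without control replicate 1. Nfkb1, which encodes the p105 precursor of p50, measured 197, 188, and 202 CPM in control and 424, 457, and 468 CPM with IL-4/13, a 2.30-fold rise (adjusted p = 2.55e-19). Its partner Bcl3, a nuclear protein that binds p50, rose from 15.3 ± 1.6 to 23.8 ± 0.584 CPM. The transcriptional repressors Bcl6 and Nfil3 rose from 26.0 ± 1.20 to 36.7 ± 2.08 CPM and from 36.1 ± 2.89 to 52.0 ± 2.96 CPM. Mesenchymal and developmental factors had 2 of 69 upregulated, or 1 without IL-4/13 replicate 3 or control replicate 1, and 7 downregulated, or 4 without IL-4/13 replicate 2 or control replicate 1. Over all tested genes, 2.78% were upregulated and 2.57% downregulated. Gata3, a master regulator of type 2 lymphocytes, was low but rose from 3.98 ± 0.722 to 6.79 ± 0.876 CPM (adjusted p = 0.00453). Prrx2, a homeobox gene of mesenchyme, fell from 60.9 ± 3.32 to 43.0 ± 1.91 CPM, and Hic1, a repressor of quiescent stromal cells, fell from 31.7 ± 0.512 to 23.7 ± 0.461 CPM. Twist1 measured 44.5 ± 4.08 CPM in control and 41.2 ± 2.74 CPM with IL-4/13 and was not called. Hlf, a clock output factor, was at 1.43, 0.806, and 1.62 CPM in control and 6.05, 7.19, and 7.42 CPM with IL-4/13. Of 28 adipogenic genes, 3 rose and 2 fell, or 1 fell without IL-4/13 replicate 1 or 2. Cebpa, a master regulator of adipogenesis, measured 6.34, 3.72, and 3.66 CPM in control and 1.98, 2.46, and 2.65 CPM with IL-4/13 (adjusted p = 0.0235), and was not called without IL-4/13 replicate 1 or 2 or control replicate 1, with an adjusted p of 0.0675 to 0.233. Klf9 rose from 44.1 ± 1.82 to 60.2 ± 1.93 CPM, and Fabp4, a fatty acid binding protein of adipocytes, rose from 11.3 ± 0.790 to 16.2 ± 3.64 CPM, with an adjusted p of 0.104 without IL-4/13 replicate 3. Angptl4, an inhibitor of lipoprotein lipase, rose from 50.5 ± 2.07 to 75.3 ± 6.25 CPM, and Dlk1, the preadipocyte inhibitor of adipogenesis, measured 1651, 1552, and 1691 CPM in control and 1142, 1133, and 1094 CPM with IL-4/13 (adjusted p = 1.16e-10). The 8 mature adipocyte markers, Fabp4 among them, summed to 20.1 to 24.7 CPM in control and 24.8 to 32.1 CPM with IL-4/13. Adipoq and Lep were at 0. The 2 tested markers were Fabp4 and Lipe. Lipe measured 10.6 ± 1.455 CPM in control and 11.03 ± 0.427 CPM with IL-4/13 and was not called. The sum thus holds the rise of Fabp4 and is not a separate measure of it. The part of these markers in the changes of the other genes was not tested.

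Chemokine ligands had 7 of 22 tested members upregulated, with a median log2 fold change of 0.471. Ccl2 and Ccl7, which attract monocytes, led by level: Ccl2 measured 73.6, 66.4, and 61.1 CPM in control and 281, 293, and 289 CPM with IL-4/13 (adjusted p = 1.75e-19), and Ccl7 measured 36.8, 41.2, and 34.6 CPM in control and 178, 182, and 186 CPM with IL-4/13 (adjusted p = 4.68e-23). Ccl11, the eosinophil chemoattractant eotaxin 1, rose from 0.375 ± 0.178 to 3.47 ± 0.632 CPM (adjusted p = 7.75e-09), Ccl8 from 1.18 ± 0.497 to 2.51 ± 0.436 CPM, and Ccl9 from 15.9 ± 2.49 to 29.1 ± 1.40 CPM. Cxcl1, a neutrophil attractant, rose from 7.09 ± 0.4 to 10.9 ± 0.865 CPM, within the same list. Cxcl12, the most abundant chemokine not called, measured 341 ± 7.64 CPM in control and 321 ± 19.3 CPM with IL-4/13. Of 23 other cytokines, 3 rose, or 1 without IL-4/13 replicate 1 or control replicate 2. Lif, an IL-6 family ligand that signals through gp130, rose from 8.61 ± 0.971 to 15.3 ± 1.27 CPM (adjusted p = 6.15e-08). Growth and angiogenic factors split into 9 upregulated and 7 downregulated of 37. Besides Edn1, Vegfc, the lymphatic growth factor, rose from 18.8 ± 1.32 to 33.5 ± 0.958 CPM, and Hbegf, an EGF receptor ligand, from 39.3 ± 3.18 to 59.6 ± 2.00 CPM. Ptn, which encodes pleiotrophin, measured 867, 851, and 788 CPM in control and 515, 488, and 509 CPM with IL-4/13 and fell to 0.604 of control (adjusted p = 7.61e-10). Of 24 WNT genes, 2 rose and 3 fell, and 1 rose on leaving out any 1 library other than control replicate 1. Fzd4, a receptor for WNT ligands and norrin, rose from 18.4 ± 1.83 to 30.2 ± 1.36 CPM (adjusted p = 3.69e-06). Of 37 TGF-β and BMP genes, 2 rose and 2 fell, or 10.8% called against 5.35% of all tested genes. Inhbb, an activin subunit in that list, rose from 99.9 ± 2.37 to 135 ± 1.43 CPM. Of 43 guidance ligands and receptors, 5 rose and 5 fell, with a median log2 fold change of -0.154. The rises numbered 2 without IL-4/13 replicate 2 or control replicate 1 and 3 without control replicate 2, and the falls numbered 3 without IL-4/13 replicate 1 or 2 or control replicate 1 or 3. Sema3c, a secreted semaphorin, rose from 7.67 ± 0.457 to 13.2 ± 1.57 CPM. Angpt1, the agonist of the endothelial receptor Tie2, fell from 26.8 ± 2.51 to 14.2 ± 0.825 CPM.

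Of 9 tested genes of the insulin-like growth factor axis, 3 rose and 1 fell, or 44.4% called against 5.35% of all tested genes. The list had a median log2 fold change of -0.085. Pappa, the metalloprotease that cleaves IGFBP4 and frees IGF, was the largest fall among genes with at least 5 CPM and measured 5.09, 4.03, and 6.60 CPM in control and 1.61, 1.43, and 1.99 CPM with IL-4/13 (log2 fold change -1.65, SE 0.241, adjusted p = 1.29e-05). Igfbp4, its substrate, rose from 218 ± 10.4 to 312 ± 21.5 CPM (adjusted p = 4.09e-09), and Igfbp3 from 1.65 ± 0.110 to 3.73 ± 0.456 CPM (adjusted p = 9.13e-06). Chrdl1, an antagonist of BMP, rose from 4.28 ± 0.748 to 19.9 ± 3.60 CPM. The 2 falls of the TGF-β and BMP list were 1 without IL-4/13 replicate 2 and 5 without control replicate 2.

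Several structural matrix genes fell with IL-4/13, whereas several enzymes that crosslink and process collagen rose. Of 26 tested collagen chains, 9 were downregulated and 1 was upregulated, with a median log2 fold change of -0.23 that ranged from -0.290 to -0.186 over the alternatives. Col3a1 measured 1752, 1647, and 1800 CPM in control and 1231, 1201, and 1296 CPM with IL-4/13 and fell to 0.717 of control (adjusted p = 3.42e-08). Col1a1 measured 4048, 3365, and 4266 CPM in control and 3061, 2847, and 3051 CPM with IL-4/13, with no overlap and an adjusted p of 0.0306 that lay between 0.0763 and 0.099 without any 1 IL-4/13 library and was 0.0965 without control replicate 1. Col1a2 fell from 5541 ± 427 to 4544 ± 119 CPM (adjusted p = 0.0011), with a log2 fold change of -0.242 without control replicate 3, just inside the threshold. Col5a1 measured 464, 415, and 526 CPM in control and 356, 322, and 363 CPM with IL-4/13 (adjusted p = 0.0468), a call lost without any 1 IL-4/13 library or without control replicate 1 or 3, with an adjusted p of 0.0918 to 0.142. Col18a1, of basement membranes, fell from 288 ± 15.2 to 210 ± 3.36 CPM, and Col15a1 fell from 4.67 ± 0.0633 to 1.73 ± 0.134 CPM. The single rise, or 1 of 2 without IL-4/13 replicate 1 or control replicate 1, was Col28a1, from 2.67 ± 0.319 to 6.14 ± 0.589 CPM. Col4a1, the most abundant chain not called, measured 1593 ± 116 CPM in control and 1599 ± 98.5 CPM with IL-4/13.

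Collagen-modifying genes had 6 of 28 upregulated and 2 downregulated, although the list had a median log2 fold change of -0.057. At an unadjusted p below 0.05, 6 were higher and 11 lower. Among the lower was the abundant Serpinh1, at 1456 ± 35.5 CPM in control and 1269 ± 16.6 CPM with IL-4/13, inside the fold threshold. Lox, the enzyme that crosslinks collagen and elastin, measured 956, 936, and 971 CPM in control and 1883, 1882, and 1875 CPM with IL-4/13, a 1.97-fold rise with almost no spread within groups (log2 fold change 0.98, SE 0.036, adjusted p = 5.48e-19). Its relative Loxl4 rose from 161 ± 12.7 to 230 ± 20 CPM. Adamts14, which removes the amino-terminal propeptide of procollagen, rose from 52.1 ± 6.16 to 124 ± 1.13 CPM (adjusted p = 1.51e-14), and Pcolce2, an enhancer of carboxyl-terminal processing, from 2.45 ± 0.605 to 4.77 ± 1.26 CPM. P4ha3, a prolyl hydroxylase subunit, fell from 29.3 ± 1.43 to 19.1 ± 0.803 CPM.

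Elastic fiber genes, matricellular proteins, and other matrix glycoproteins had the largest number of falls of any list examined, with 14 of 47 downregulated and 3 upregulated and a median of -0.191. Dpt, which encodes dermatopontin, measured 50.6, 40.2, and 39.2 CPM in control and 21.2, 18.3, and 28.2 CPM with IL-4/13, about 0.517 of control (adjusted p = 0.000309). Islr, also called meflin, measured 20.2, 12.9, and 18.1 CPM in control and 9.11, 7.00, and 8.60 CPM with IL-4/13. Ccn5 fell from 13.3 ± 1.58 to 7.20 ± 1.18 CPM and Matn4 from 1.51 ± 0.0928 to 0.407 ± 0.167 CPM. The rises were Tnc, which encodes tenascin C, from 222 ± 31.0 to 374 ± 7.57 CPM (adjusted p = 0.00841), Npnt, from 19.3 ± 0.388 to 48.4 ± 3.51 CPM, and Ccn2, from 19 ± 1.90 to 29.1 ± 1.44 CPM. Of 19 proteoglycan genes, 1 rose, or 0 on leaving out any 1 library other than control replicate 1, and 2 fell, or 1 on leaving out any 1 library other than control replicate 2. Aspn, which encodes the proteoglycan asporin, fell from 177 ± 14.5 to 106 ± 7.80 CPM. Plau, the urokinase plasminogen activator, rose from 19.3 ± 0.357 to 38.5 ± 2.43 CPM. Itga11, a collagen-binding integrin subunit, fell from 4.79 ± 0.668 to 1.83 ± 0.339 CPM (adjusted p = 0.000444). Acta2, the smooth muscle actin of myofibroblasts, fell from 1284 ± 17.1 to 1067 ± 20.3 CPM (adjusted p = 3.39e-05).

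The 15 largest falls also held Megf10, an engulfment receptor, at 5.49, 6.82, and 5.22 CPM in control and 1.5, 2.66, and 1.91 CPM with IL-4/13 (adjusted p = 1.71e-05), the pseudokinase Fam20a (0.513 of control), the integrin-like Itgbl1 (0.519), Arhgap20 (0.541), Adamtsl3 (0.554), Nrep (0.574), the iron exporter Slc40a1 (0.581), and Adcyap1r1, the receptor for PACAP (0.583). Glt8d2, also among them, measured 0.541 of control and was not called without IL-4/13 replicate 2 (adjusted p = 0.0639). Spry1, a feedback inhibitor of receptor tyrosine kinases, measured 30.5, 31.8, and 29.9 CPM in control and 18.2, 15.6, and 15.1 CPM with IL-4/13 (adjusted p = 2.63e-08). Errfi1, a feedback inhibitor of the EGF receptor, moved the other way, from 218 ± 6.01 to 343 ± 10.7 CPM (adjusted p = 1.32e-12).

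**Figure D4:**
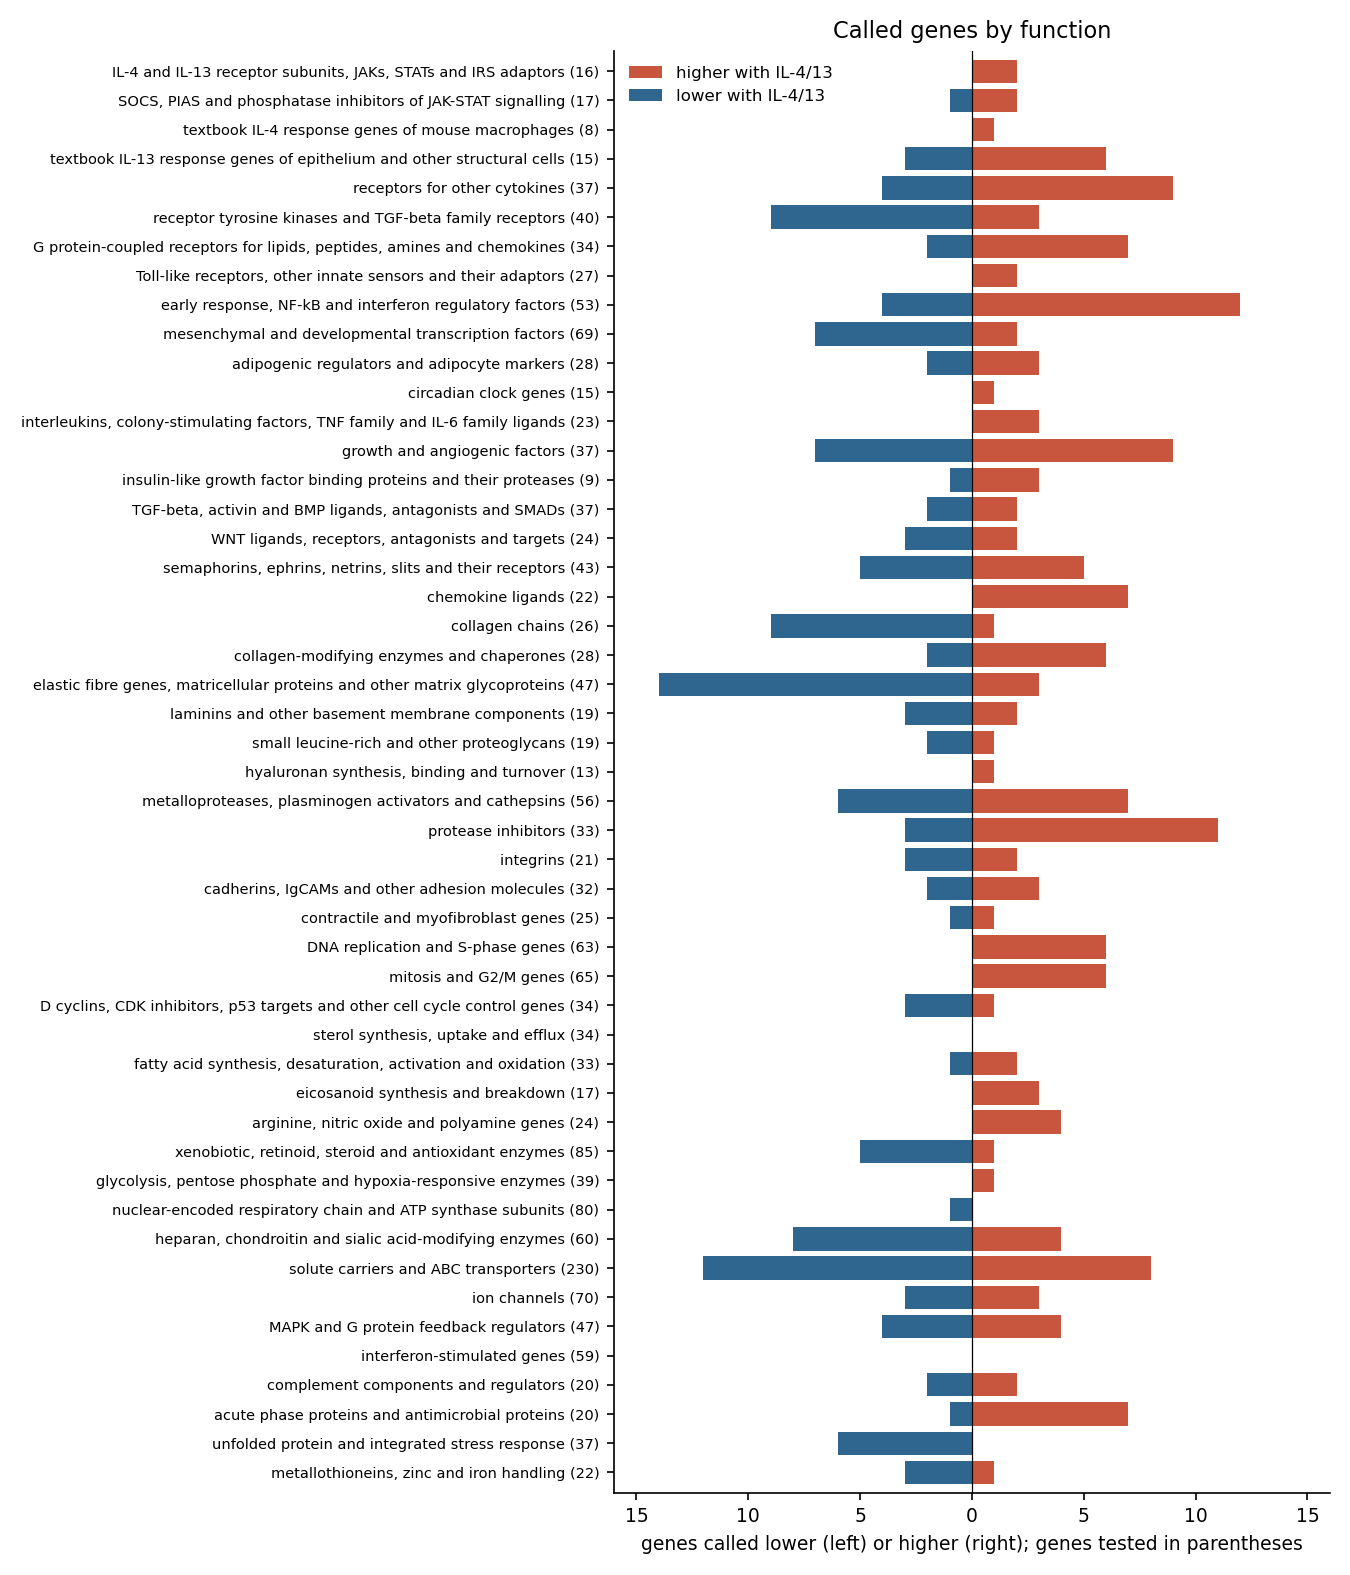
Number of genes called higher (red, right) and lower (blue, left) with IL-4/13 in each of 49 function lists, with the number tested in parentheses. The longest bars to the left are the matrix glycoproteins (14) and the solute carriers and transporters (12), and the longest to the right are the early response factors (12) and the protease inhibitors (11).

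Cell cycle genes showed a small shift that ran through nearly the whole of both lists. Of 65 mitosis and G2/M genes, 64 had a log2 fold change above 0, with a median of 0.143, and of 63 replication and S-phase genes, 57 did, with a median of 0.137, while 49.4% of all tested genes lay above 0. At an unadjusted p below 0.05, 43 of the 65 and 30 of the 63 were higher, against 10.6% of all tested genes. The size of the shift kept most of them below the fold threshold, so 6 genes of each list were called, and that count ranged from 3 without control replicate 1 to 10 without control replicate 2 for G2/M, and for S phase was 1 without IL-4/13 replicate 2, 2 without control replicate 3, and 3 without control replicate 1. The medians stayed between 0.129 and 0.156 for G2/M and between 0.123 and 0.153 for S phase in all alternatives. Hmmr, a spindle protein, rose from 73.4 ± 4.40 to 93.2 ± 4.84 CPM (adjusted p = 7.44e-05), and Top2a, a topoisomerase, measured 330, 345, and 342 CPM in control and 415, 414, and 395 CPM with IL-4/13, with a log2 fold change of 0.249 without control replicate 1. Of 34 cell cycle control genes, 1 rose and 3 fell, with 2 rises without IL-4/13 replicate 3 or control replicate 2. Cdk6 rose from 93.5 ± 2.41 to 115 ± 4.46 CPM, and Cdkn2b, the inhibitor p15, fell from 90.4 ± 3.91 to 72.7 ± 2.96 CPM (adjusted p = 0.000257). Ccnd1, which encodes cyclin D1, measured 688 ± 23.4 CPM in control and 708 ± 3.91 CPM with IL-4/13 and was not called.

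**Figure D5:**
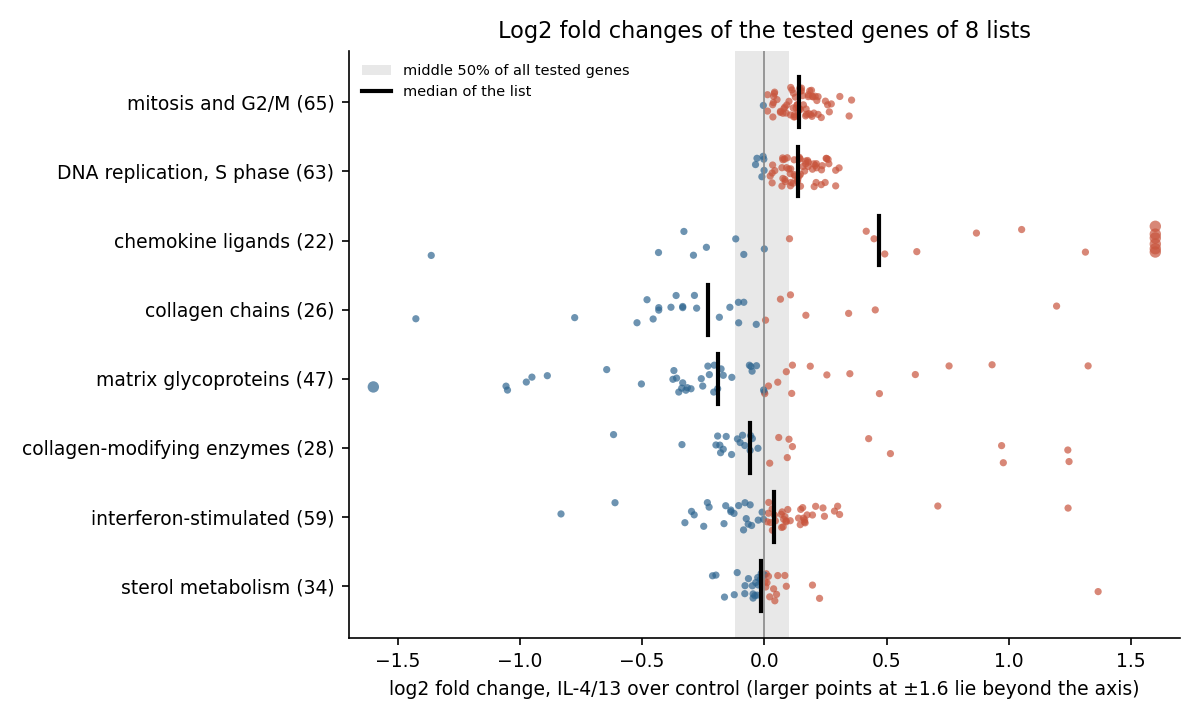
Log2 fold change of each tested gene in 8 function lists, with 1 point per gene (red above 0, blue below, larger points beyond the axis at 1.6), a black bar at the median of the list, and a gray band over the middle range of all tested genes (-0.12 to 0.103). The G2/M and S-phase points crowd just right of 0 (medians 0.143 and 0.137), collagen chains and matrix glycoproteins lie mostly left (medians -0.23 and -0.191), and the sterol genes center on 0.

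Among enzymes, genes of arginine, nitric oxide, and polyamine metabolism had 4 of 24 upregulated. Azin2 and Azin1 encode antizyme inhibitors, which protect ornithine decarboxylase and so favor polyamine synthesis. Azin2 measured 18.8, 18.4, and 18.1 CPM in control and 65.8, 74.8, and 70.6 CPM with IL-4/13, a 3.81-fold rise (adjusted p = 3.76e-19), and Azin1 rose from 98.2 ± 4.58 to 125 ± 6.19 CPM. Slc7a2, the cationic amino acid transporter that carries arginine, rose from 2.86 ± 0.356 to 9.14 ± 0.577 CPM (adjusted p = 6.26e-10), and Ddah1, which degrades the nitric oxide synthase inhibitor dimethylarginine, rose from 100.5 ± 5.85 to 126 ± 3.00 CPM. Xdh, xanthine dehydrogenase, rose 2.12-fold from 116 ± 6.73 to 246 ± 2.81 CPM and was named after its values were seen. Of 17 eicosanoid genes, 3 rose, or 1 without IL-4/13 replicate 2. Ptgs2, the inducible cyclooxygenase, rose from 137 ± 5.12 to 180 ± 2.53 CPM (adjusted p = 4.66e-06). St3gal1, a sialyltransferase, rose from 117 ± 2.33 to 212 ± 3.35 CPM (adjusted p = 6.8e-15), within a list of 60 glycan-modifying enzymes of which 4 rose and 8 fell, or 5 without control replicate 3. Of 70 ion channel genes, 3 rose and 3 fell, or 8.57% called against 5.35% of all tested genes. The falls numbered 5 without IL-4/13 replicate 3 or control replicate 2. Ano1, a calcium-activated chloride channel, rose from 1.07 ± 0.397 to 4.87 ± 0.901 CPM, and Kcna4, a potassium channel, from 0.899 ± 0.156 to 2.48 ± 0.329 CPM. The falls were Kcnab2, Lrrc8d, and P2rx4, at 0.770, 0.786, and 0.831 of control, and each lost its call without at least 1 library: Kcnab2 without control replicate 3 (adjusted p = 0.0949), Lrrc8d without IL-4/13 replicate 2 or control replicate 1 (0.0779 and 0.064), and P2rx4 without IL-4/13 replicate 2 or 3 or control replicate 3 (0.0602 to 0.147). Of 230 solute carriers and ABC transporters, 8 rose and 12 fell, or 8.7% called against 5.35% of all tested genes. Of 34 sterol genes, 0 were called by edgeR or by DESeq2, with 1 higher and 2 lower at an unadjusted p below 0.05.

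Stress and innate genes were mixed. Of 37 genes of the unfolded protein and integrated stress responses, 6 fell, including Ddit3, the factor CHOP, from 46.1 ± 0.475 to 34.7 ± 1.24 CPM (adjusted p = 0.000224), Trib3 from 75.2 ± 4.35 to 54.9 ± 3.66 CPM, and Chac1 from 59.5 ± 1.99 to 47.8 ± 1.20 CPM. The list as a whole did not lean down, with a median log2 fold change of 0.001. At an unadjusted p below 0.05, 10 of its genes were higher and 11 lower. Among the higher, Calr went from 1602 ± 2.79 to 1831 ± 56.8 CPM and Hsp90b1 from 919 ± 29.9 to 1034 ± 11.6 CPM, both under the fold threshold. Among genes of metal handling, Hmox1, heme oxygenase 1, fell from 140 ± 3.47 to 105 ± 6.60 CPM (adjusted p = 3.7e-07), Mt1, a metallothionein, fell from 90.2 ± 2.74 to 69.5 ± 5.36 CPM, and Slc40a1, ferroportin, fell from 21.5 ± 1.39 to 12.5 ± 0.856 CPM, while Cp, the ferroxidase ceruloplasmin, rose from 138 ± 3.24 to 189 ± 11.6 CPM (adjusted p = 7.75e-09). Of 20 complement genes, 2 rose and 2 fell. C3 measured 5.83, 6.58, and 5.88 CPM in control and 40.8, 43.1, and 47.4 CPM with IL-4/13 (adjusted p = 2.77e-09), and Masp1, a protease of the lectin pathway, measured 55.1, 50.6, and 60.1 CPM in control and 171, 172, and 163 CPM with IL-4/13 (adjusted p = 1.13e-18). Clu, which encodes the complement inhibitor clusterin, measured 5.71, 3.29, and 4.8 CPM in control and 2.63, 3.24, and 2.06 CPM with IL-4/13 (adjusted p = 0.0113), and C1s1, a protease of the classical pathway, measured 13.9 ± 1.49 CPM in control and 10.7 ± 1.73 CPM with IL-4/13 (adjusted p = 0.00964), with overlapping groups. For C1s1, 24.3% of the 50-base stretches are shared with C1s2, so its level is uncertain. The count of 2 falls was 0 without IL-4/13 replicate 1 and 1 without IL-4/13 replicate 2, IL-4/13 replicate 3, or control replicate 1. Of 59 interferon-stimulated genes, 0 were called by edgeR or by DESeq2, with 2 higher and 1 lower at an unadjusted p below 0.05. Their median log2 fold change was 0.041.

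Textbook IL-4 response genes of mouse macrophages were mostly not expressed. Of 23 listed genes, 8 passed the filter on low counts, and over the 6 libraries Arg1 had 1 count, Chil3 had 2, and Retnla had 0. Of these 8, 1 was called, Flt1. The list of IL-13 response genes known from epithelium and other structural cells had 6 of 15 tested genes upregulated (Il13ra2, Ccl11, Cish, Serpinb2, Socs1, and Tnc) and 3 downregulated, among them Col1a1 and Acta2. Over all tested genes the shares were 2.78% and 2.57%. The count of 3 was 1 without IL-4/13 replicate 2 and also without control replicate 1. The list had a median log2 fold change of -0.014, with 7 genes above 0 and 8 below. Postn, which encodes periostin, measured 428 ± 17.1 CPM in control and 371 ± 15.8 CPM with IL-4/13. Its groups did not overlap, but its log2 fold change of -0.207 (adjusted p = 0.00146) stayed inside the threshold.

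The response to IL-4/13 was also measured in cells given Inf, in libraries that share no sample with the comparison above. Of the 14810 genes, 461 (3.11%) had a response that differed between these backgrounds, 225 (1.52%) higher and 236 (1.59%) lower with Inf. Among the 15 largest rises, 7 had a smaller response with Inf on the log2 scale, where the response is a ratio to the level with Inf alone. These genes were picked for a large rise without Inf, which favors a smaller response elsewhere. All 7 had a higher mean with Inf alone than in control, and all but Hlf were highest with both. Ccl2 measured 67.1 CPM in control, 288 CPM with IL-4/13, 1871 CPM with Inf, and 2128 CPM with both. C3 measured 6.1, 43.8, 741, and 1223 CPM in the same order. Il1rl1 showed no called difference in response, with log2 fold changes of 1.27 without Inf and 1.13 with it (adjusted p of the difference = 0.239).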

How the data were processed

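PolyA-selected, stranded mRNA libraries of 3T3-L1 cells were sequenced by the authors, who deposited raw read counts per Ensembl gene for 12 libraries, 3 in each of 4 groups; the submitters' processing notes name STAR, featureCounts, and GRCm39, and the annotation release and counting options are not given in the sources used here. Groups were taken from the labels. Counts were analyzed with edgeR 4.0.16 in R 4.3.3: TMM normalization, filterByExpr with a minimum count of 10 and a minimum total of 15 (14810 of 56941 genes kept), and a robust quasi-likelihood fit of all 4 groups, so that all 12 libraries shared 1 estimate of spread. IL-4/13 was contrasted with control, and the response with Inf was compared with that without it by an interaction contrast. A gene was called where its adjusted p was under 0.05 and it changed by over 0.25 on the log2 scale. CPM values were scaled by TMM; SEs were derived from the log2 fold change and F statistic. Totals were 13446005 to 20775769 counts per library.

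Named genes were the 15 largest rises and 15 largest falls among called, non-overlapping genes whose mean reached 5 CPM in either group, all genes of the receptor and feedback lists, and, in each other list, up to 6 called genes with the largest change and 2 uncalled genes with the highest level, plus cell type markers. The members and lists were chosen with earlier results of these data known. In counts simulated for this comparison, edgeR recovered 92% of 200 genes changed by 1 on the log2 scale and called 6 unchanged genes of 14246 tested. No smaller change was simulated, and the changed genes all had a control mean above 1 CPM. The recovery of smaller changes, and of genes at lower control levels, was thus not measured. In the data, 219 of the called rises and 264 of the called falls were smaller than 0.5. Sequence sharing and lengths came from GENCODE M21 transcripts (GRCm38) and promoters from RefSeq (GRCm38.p6). The coordinates shown are all of GRCm38, whereas the notes name GRCm39 for the counts, so lengths and sharing come from another build than the counts. Besides the genes flagged in the text, Xdh, Lrrc8d, Socs2, and Ddit3 share 8.59%, 8.01%, 7.23%, and 6.09% of their 50-base stretches with other gene models. Alternatives were DESeq2 1.42.0, other scalings, filters and thresholds, the 6 libraries alone, the replicate number as a block, and each replicate left out. Same-numbered libraries did not deviate together, so no pairing was used.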

Additional observations from a re-analysis of the deposited data

Results flagged for a closer look

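For 12 of 61 genes examined, the log2 response to IL-4/13 differed between cells with and without Inf by edgeR's test of the difference itself. The response with Inf minus that without was -2.79 for Serpina3g (adjusted p = 5.85e-07), -2.17 for Il13ra2 (adjusted p = 2.4e-06), -2.12 for C3 (adjusted p = 2.02e-06), and -1.37 for Prl2c3 (adjusted p = 1.13e-05); these genes still rose with Inf, by 1.74, 1.96, 0.72, and 1.35 on the log2 scale. It was -1.67 for Hlf (adjusted p = 0.000326). The monocyte chemokines differed by -1.81 for Ccl7 (adjusted p = 7.5e-17) and -1.91 for Ccl2 (adjusted p = 2.75e-15), with responses of 0.46 and 0.19 with Inf. Falls were deeper with Inf for Angpt1, by -0.65 (adjusted p = 0.00638), and Ccn5, by -0.75 (adjusted p = 0.00604), and shallower for Spry1, by 0.50 (adjusted p = 0.0485). The receptor subunits Il4ra and Il13ra1 differed by -0.33 (adjusted p = 0.0165) and -0.28 (adjusted p = 0.0315), with log2 fold changes of -0.25 and -0.23 in the presence of Inf.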

How the results depend on the processing

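No result changed direction while called. The 412 higher and 380 lower genes became 392 and 344 with DESeq2, with 714 genes shared, and 444 and 448 in the 6 libraries alone, with 768 shared; leaving out 1 library gave 326 to 420 higher and 258 to 383 lower. The counts depended on the thresholds: without a fold threshold 667 were higher and 607 lower, at a log2 threshold of 0.5 there were 193 and 116, at 1 there were 87 and 21, and at an adjusted p of 0.01 there were 245 lower. The responses that differed with Inf (225 higher, 236 lower) became 129 and 148 at an adjusted p of 0.01, 67 and 96 at a log2 threshold of 0.5, and 17 and 23 at 1. The replicate numbers did not pair the samples, with correlations of -0.045, -0.016, and -0.05 between same-numbered libraries; with the replicate block 388 genes were higher and 329 lower, 716 of them among the 792, and the responses numbered 197 and 213. The log2 fold change of Col1a1 lost its call with the block (adjusted p = 0.0531), without the filter (0.0666), and in the 6 libraries alone (0.103), as did that of Col5a1 (0.0955, 0.0917, and 0.0611). The log2 fold change of Col5a1 stayed below 0 in each. Fold changes of genes with few control counts are limited by depth.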
